A study of Mus musculus with 16 samples.

Results

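The membrane carriers that brain endothelial cells (ECs) use to move nutrients and organic anions across the blood-brain barrier were followed by name, namely Slc2a1, Mfsd2a, Slc7a1, Slc7a5, Slc3a2, Slco1a4, Slc38a5, Slc38a3, Slc52a3 and Slc22a8. They were taken from the table by gene symbol, with earlier results of these data known, and are 10 of the 56980 gene identifiers in the table. RNA was sequenced from cortical astrocytes, captured with ACSA-2 beads, and from ECs, captured with CD31 beads, after myelin and CD45-positive cells had been removed. Each of 8 animals at postnatal day 14 gave 1 EC and 1 astrocyte library, which makes 4 groups of 4 libraries and 16 libraries in all.

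All animals carried floxed Hmgb1 alleles (Hmgb1 flx/flx), and all pups, controls included, were injected with tamoxifen on the day of birth and the following days. The mutants (Hmgb1ΔAstro) also carried the Aldh1l1-Cre/ERT2 transgene, a BAC in which the astrocyte promoter Aldh1l1 drives an inducible Cre. Littermates without the transgene are called wild type, so tamoxifen is shared by both genotypes and the Cre transgene is not. Both sexes were used. The study asked what loss of astrocytic HMGB1 does to astrocytes and to the vessels they contact.

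Brain capillary ECs are joined by tight junctions and have little vesicle traffic, so most polar nutrients enter the brain through carriers. Several of these carriers are set up under Wnt/β-catenin signalling as vessels invade the neural tube, and their high expression sets brain ECs apart from those of peripheral tissues. Slc2a1 encodes the glucose transporter GLUT1. Mfsd2a carries lysophosphatidylcholine with omega-3 fatty acids and restrains transcytosis. Slc7a5 (LAT1) exchanges large neutral amino acids and needs the heavy chain encoded by Slc3a2 (CD98hc) to reach the membrane, while Slc7a1 (CAT1) takes up cationic amino acids. Slc38a3 (SNAT3) and Slc38a5 (SNAT5) move glutamine together with sodium. Slco1a4 (OATP1A4) and Slc22a8 (OAT3) handle organic anions, and Slc52a3 carries riboflavin.

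The genes lie on 8 chromosomes of GRCm39. Slc2a1 spans chr4:118965908-118996365 on the plus strand and Mfsd2a chr4:122840643-122855244 on the minus strand. Of the amino acid carriers, Slc7a1 lies at chr5:148264220-148336848 (minus), Slc7a5 at chr8:122607884-122634433 (minus), Slc3a2 at chr19:8684245-8701108 (minus), Slc38a5 at chrX:8123870-8146425 (plus) and Slc38a3 at chr9:107527815-107547018 (minus). Slco1a4 lies at chr6:141751165-141802036 (minus), Slc22a8 at chr19:8568476-8589541 (plus) and Slc52a3 at chr2:151838426-151852027 (plus). Annotated genes overlap 5 of them, and the strand setting of the counting is not given in the sources used here, so reads of overlapping antisense genes cannot be told apart.

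The 250 bases before the start of the canonical transcript were read from GRCm39 for each carrier. Windows of 4 carriers are shown because they hold no annotated exon and span the expression patterns described below: glucose carrier Slc2a1 (chr4:118965658-118965907, plus strand), EC-restricted Slco1a4 (chr6:141802037-141802286, minus) and Slc52a3 (chr2:151838176-151838425, plus), and Slc38a3 (chr9:107545182-107545431, minus), which both cell types expressed. Each ends at the base before the start site, 5′ to 3′, and capitals mark the match to a searched motif, here a GC box read on the other strand.
Slc2a1: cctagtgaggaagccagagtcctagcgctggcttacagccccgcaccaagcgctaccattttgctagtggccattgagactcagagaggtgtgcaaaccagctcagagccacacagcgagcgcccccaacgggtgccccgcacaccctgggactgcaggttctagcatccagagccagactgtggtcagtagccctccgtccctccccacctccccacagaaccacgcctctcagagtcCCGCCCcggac
Slco1a4: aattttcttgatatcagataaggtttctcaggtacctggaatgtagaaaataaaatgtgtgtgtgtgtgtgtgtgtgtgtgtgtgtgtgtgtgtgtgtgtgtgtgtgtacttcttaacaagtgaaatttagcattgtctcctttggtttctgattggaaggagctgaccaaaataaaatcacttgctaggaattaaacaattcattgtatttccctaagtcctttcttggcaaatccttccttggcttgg
Slc52a3: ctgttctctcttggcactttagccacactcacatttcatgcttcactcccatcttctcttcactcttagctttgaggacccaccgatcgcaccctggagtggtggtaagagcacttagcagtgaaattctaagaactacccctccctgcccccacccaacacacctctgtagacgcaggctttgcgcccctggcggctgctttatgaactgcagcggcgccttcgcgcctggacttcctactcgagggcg
Slc38a3: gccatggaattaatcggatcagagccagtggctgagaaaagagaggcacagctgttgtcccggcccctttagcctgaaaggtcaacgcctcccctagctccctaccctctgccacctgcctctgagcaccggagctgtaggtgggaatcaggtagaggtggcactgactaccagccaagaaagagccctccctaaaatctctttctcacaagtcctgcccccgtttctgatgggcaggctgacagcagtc

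The windows had little in common. The observed over expected CpG ratio was 1.12 in the Slc7a5 window, higher than in 98.5% of 21631 protein-coding promoters, and 0 in the Slco1a4 window, which holds no CpG and a long run of alternating t and g. The median of all promoters was 0.474, and Slc2a1 (0.462) lay near it. Motifs were searched on both strands. The GC box GGGCGG stood in 3 of the 10 windows (Slc2a1, Slc7a5 and Slc3a2) and in 36.4% of all promoters, and the hypoxia-inducible factor core ACGTG in 3 (Mfsd2a, Slc7a5 and Slc3a2) against 17.0%. In the Slc7a5 window the ACGTG matches on the 2 strands overlap. The TCF/LEF letters CTTTGAT, through which β-catenin acts on DNA, stood in the Slc7a1 window alone (2.86% of all promoters), the ETS core CCGGAAG in that of Slc3a2 alone (6.87%) and the SOX letters ACAAAG in that of Slc38a5 alone (15.9%). No window held the TATA box TATAAA (11.95%) or the amino acid response letters TGATGCAA (0.892%).

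The libraries held 16076010 to 23132312 counts and 24029 to 27113 genes with reads, and none of the 24 pairs of replicates was identical. Levels are given as CPM, a gene's counts per 1000000 counts of its library. The 11 EC markers summed to 14681–16301 CPM in EC libraries and 16.7–36.0 CPM in astrocyte libraries, and the 11 astrocyte markers to 34130–45128 CPM in astrocytes and 900–1524 CPM in ECs; no marker of either list was at 0. Hmgb1, the deleted gene, was at 106 ± 20.05 CPM (SD, n = 4) in wild-type and 41.0 ± 7.54 CPM in mutant astrocytes, without overlap, and at 192 ± 13.7 and 187 ± 8.17 CPM in ECs. The astrocyte difference was -1.36 ± 0.15 on the log2 scale (SE) and was not called (edgeR adjusted p = 0.0605). Pericyte and smooth muscle markers summed to 2342–3441 CPM in wild-type and 2541–4629 CPM in mutant ECs. The choroid plexus gene Ttr reached 5007 CPM in the ECs of wild-type animal 5. By Y-linked genes, the 8 animals fell into a set of 4 with such transcripts (wild-type 5 and 9, mutants 2 and 13) and a set of 4 that lacked them. In bulk libraries, fewer cells of a type and less RNA per cell cannot be told apart.

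ECs carried the whole set at high levels. The 10 carriers together took 1.28% ± 0.0813 (SD, n = 4) of all counts in wild-type ECs and 1.24% in mutant ECs, against 0.235% ± 0.0317 and 0.225% in astrocytes. Slc7a5 was the 19th most abundant of all genes in wild-type ECs, Slc7a1 the 36th and Slc2a1 the 43rd. All but Slc52a3, which held rank 1783, were among the 136 most abundant genes.

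**Figure D1:**
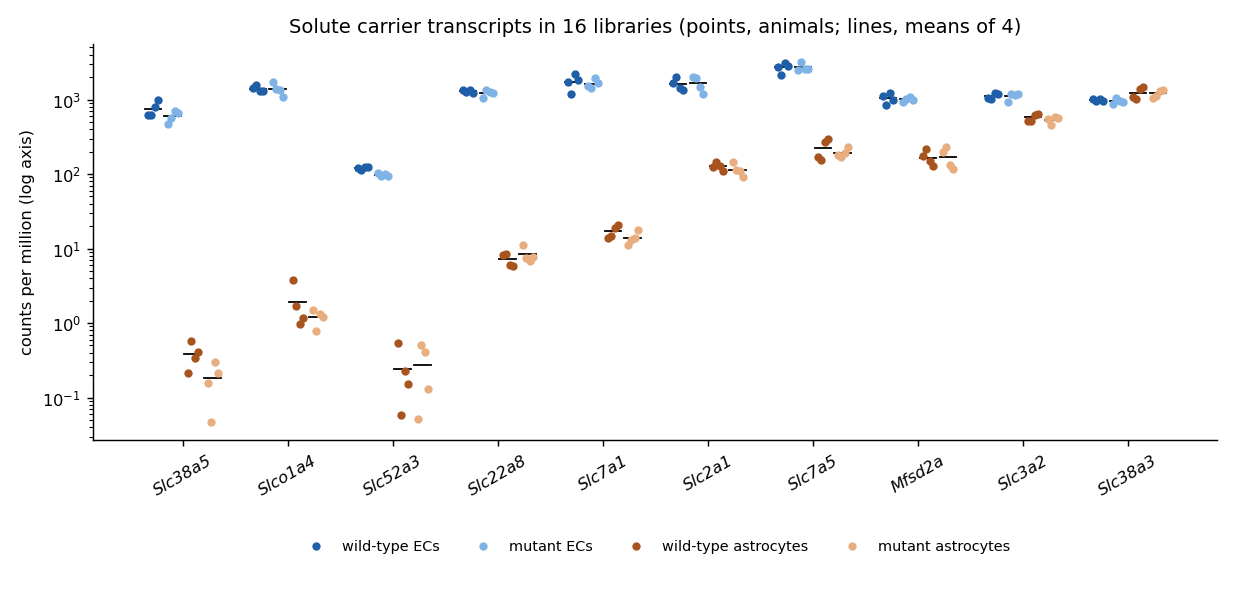
Level of each carrier in every library, in CPM on a log axis; each point is 1 animal and the groups are wild-type and mutant ECs and astrocytes. Slc38a5, Slc52a3 and Slco1a4 sit below 4 CPM in every astrocyte library, whereas Slc38a3 lies between 881 and 1452 CPM in all 16 libraries.

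Compared per kilobase of exon, the amino acid carrier Slc7a5 led in wild-type ECs at 704 ± 105 CPM per kilobase (SD, n = 4). Mfsd2a (390 ± 60.7), Slc2a1 (344 ± 66.4), Slc38a5 (302 ± 72.5) and Slc3a2 (239 ± 23 CPM per kilobase) followed. Then came Slc22a8 (192 ± 9.33), Slco1a4 (164 ± 15.1), Slc7a1 (148 ± 35.9), Slc38a3 (107 ± 2.37) and Slc52a3 (32.1 ± 1.17 CPM per kilobase). Only 3 steps in this order had libraries that did not overlap, those from Slc7a5 to Mfsd2a, from Slc3a2 to Slc22a8 and from Slc38a3 to Slc52a3. The middle of the order depended on the length used: with the longest transcript in place of all exons, Slco1a4 stood at 351 CPM per kilobase, while Slc7a5 stayed first and Slc52a3 last.

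In wild-type astrocytes the order was another one. The glutamine carrier Slc38a3 led at 134 ± 23.8 CPM per kilobase (SD, n = 4) and the heavy chain Slc3a2 followed at 124 ± 15.4, with overlapping libraries. Mfsd2a (62.4 ± 14.4), Slc7a5 (58.0 ± 18.3) and Slc2a1 (27.2 ± 3.18 CPM per kilobase) formed a middle range. The other 5 were at 1.45 CPM per kilobase or lower, from Slc7a1 down to Slc52a3 at 0.0647.

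The 2 chains of the LAT1 transporter were in opposite proportion in the 2 cell types. Per kilobase, Slc7a5 was 2.93 ± 0.253 times Slc3a2 in wild-type ECs and 2.98 ± 0.354 times in mutant ECs, but 0.461 ± 0.0905 and 0.436 ± 0.0468 times in astrocytes (SD, n = 4). The 2 glutamine carriers were unequal as well: the ratio of Slc38a5 to Slc38a3 per kilobase was 2.84 ± 0.717 in wild-type ECs and 0.00120 in wild-type astrocytes.

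ECs were then compared with astrocytes within each genotype, to ask which carriers distinguish the 2 cell types. In edgeR's quasi-likelihood test with Benjamini-Hochberg adjustment, 9 of the 10 carriers were higher in wild-type ECs and Slc38a3 was lower. Of all 16336 genes tested, 38.3% were called higher and 38.2% lower. In mutants the same split was obtained, with 38.8% and 39.1% of all genes called higher and lower. Slc38a5 and Slc52a3 entered these fits through ECs alone, since they were too low among astrocyte libraries, so their calls followed from the filter and are not counted as a result. Of the other 8 carriers, 7 were higher and 1 was lower. The adjusted p-values of the 6 carriers left beside these 2, Slc3a2 and Slc38a3 lay between 1.55e-09 and 1.10e-06 in wild-type animals.

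The amino acid carriers covered the whole range. Slc38a5 was higher in wild-type ECs by 10.85 ± 0.29 on the log2 scale (SE), Slc7a1 by 6.62 ± 0.24, Slc7a5 by 3.54 ± 0.24 and Slc3a2 by 0.90 ± 0.12. The astrocyte side of the Slc38a5 value rests on 28 reads over 4 libraries. In ECs, Slc38a5 stood at 618, 612, 783 and 995 CPM in wild-type animals 5, 9, 19 and 22. The 4 astrocyte libraries held 0.213, 0.579, 0.340 and 0.409 CPM.

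Slc38a3 was the one carrier that astrocytes held at a higher level, by a small margin. Wild-type ECs had 1003, 970, 1006 and 964 CPM and the astrocytes of the same animals 1077, 1015, 1392 and 1452 CPM. The log2 fold change of ECs over astrocytes was -0.38 ± 0.13 (SE), with an edgeR adjusted p of 0.0240, and in mutants -0.42 ± 0.11 (adjusted p = 0.00448). No EC library of the wild type reached the lowest astrocyte library. The wild-type call was lost when animal 19 (adjusted p = 0.106) or animal 22 (adjusted p = 0.131) was left out.

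The sugar and lipid carriers were shared unequally. Slc2a1 was higher in wild-type ECs by 3.61 ± 0.18 and Mfsd2a by 2.58 ± 0.18 on the log2 scale (SE). The organic anion carriers Slco1a4 (9.45 ± 0.44) and Slc22a8 (7.44 ± 0.18) and the riboflavin carrier Slc52a3 (8.84 ± 0.28) were further apart. Slc52a3 had 1 to 10 reads per wild-type astrocyte library and 18 in all.

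**Figure D2:**
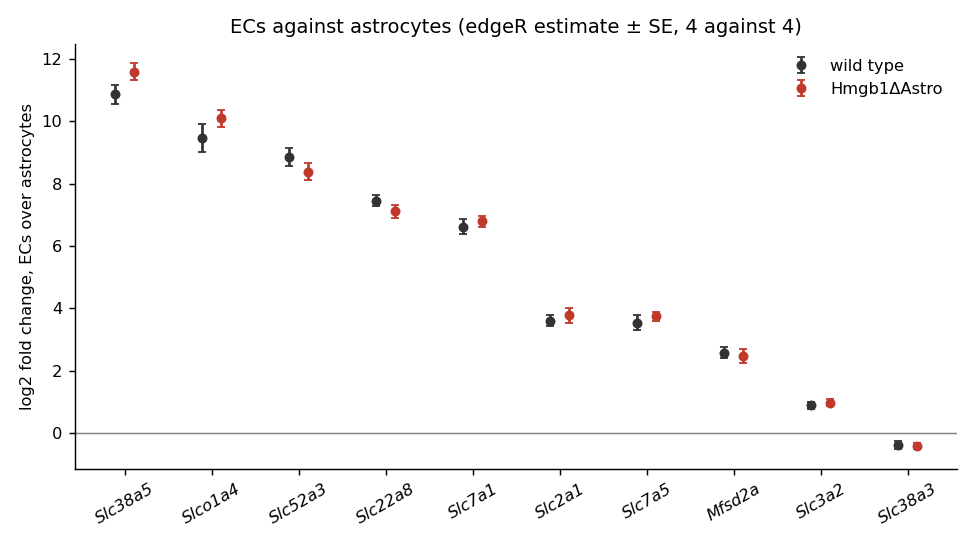
Difference between ECs and astrocytes for each carrier, as log2 fold change from edgeR with its standard error, in wild-type and mutant animals; positive values are higher in ECs. Values run from 10.85 for Slc38a5 to -0.38 for Slc38a3 in wild-type animals.

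The level in astrocytes was also expressed as a percentage of the level in ECs of the same animal, beside the 11 EC markers measured in the same way. In wild-type animals the markers ranged from 0.0439% (Cldn5, a tight junction claudin) to 0.525% (Cdh5, the endothelial cadherin). Slc38a5 (0.0534% ± 0.0278), Slco1a4 (0.135% ± 0.0894) and Slc52a3 (0.200% ± 0.170) lay within that range. Slc22a8 (0.553% ± 0.110) and Slc7a1 (1.001% ± 0.202) lay just above it. Slc2a1 (7.99% ± 0.794), Slc7a5 (8.14% ± 1.77), Mfsd2a (16.6% ± 6.04), Slc3a2 (51.5% ± 2.18) and Slc38a3 (125% ± 22.8; SD, n = 4) lay far above every marker. In mutants the markers ranged from 0.0312% (Ly6c1) to 0.711% (Emcn), a range that included Slc22a8 (0.700%) but not Slc7a1 (0.860%). Slc38a5 (0.0293% ± 0.0149), with 15 reads over the mutant astrocyte libraries, lay just below that range.

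**Figure D3:**
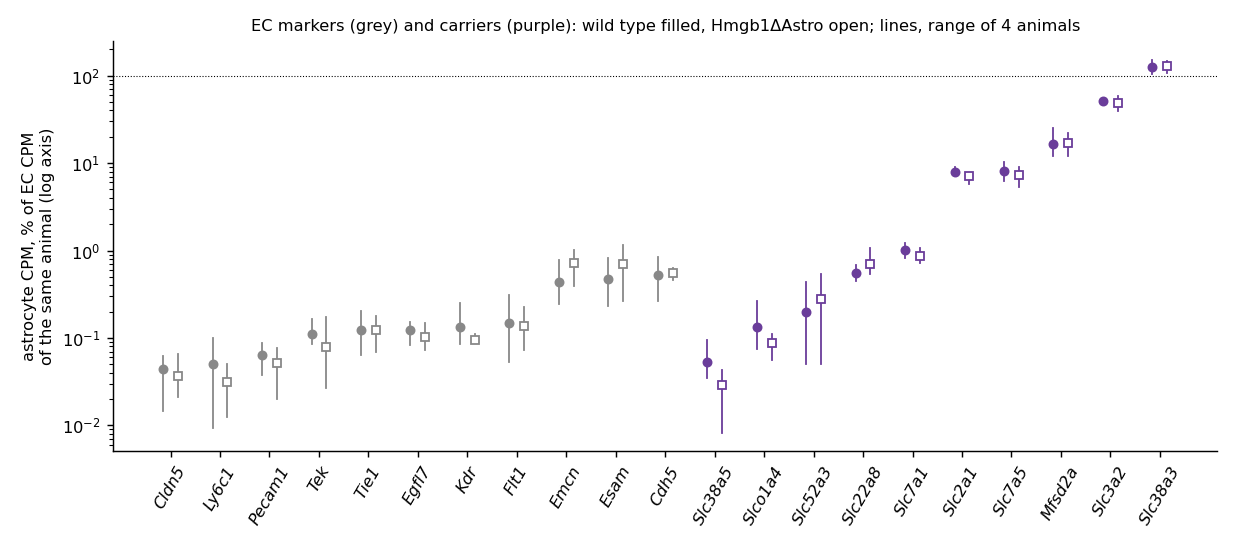
Level in astrocytes as a percentage of the level in ECs of the same animal, on a log axis, for 11 EC markers (grey) and the 10 carriers (purple); points are means of 4 animals (wild type filled, Hmgb1ΔAstro open) and lines their range. Slc2a1, Slc7a5, Mfsd2a, Slc3a2 and Slc38a3 lie above all markers.

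The reverse measure bears on Slc38a3 and Slc3a2 in ECs. Astrocyte markers in ECs stood at 2.23% (Fgfr3) to 14.8% (Sox9) of their astrocyte level in wild-type animals, with a median of 2.85%. Pericyte markers, which could accompany vessels, were at 381–1328 CPM in wild-type astrocytes. Their part in the astrocyte levels of Mfsd2a and Slc2a1 was not tested.

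Within their own families, by mean level per kilobase of exon, Slc22a8, Slc38a5 and Slc52a3 led in wild-type ECs and not in astrocytes. Slc2a1, Slc7a5, Slc3a2 and Mfsd2a led in both cell types, Slc3a2 and Mfsd2a in families of 2 measured genes. In wild-type astrocytes Slc7a5 led by little, at 58.0 ± 18.3 CPM per kilobase against 48.3 ± 2.89 for Slc7a10 (SD, n = 4). Animals 5 and 9 had 44.6 and 40.1 for Slc7a5. Without scaling by length, Slc38a2 (1325 CPM) stood above Slc38a5 (752) in wild-type ECs, and Slc7a11 (620) above Slc7a5 (223) in wild-type astrocytes. Slc52a3 (121 CPM) stood nearer to Slc52a2 (94.5) in wild-type ECs. Slc2a1 made up 97.2% of the summed level per kilobase of 9 Slc2a genes in wild-type ECs and 51.7% in astrocytes. Slc22a8 made up 86.2% of 17 Slc22a genes in ECs and 0.687% in astrocytes, where Slc22a17 led at 106 CPM per kilobase. Among 12 Slc7a genes, Slc7a5 held 79.8% and Slc7a1 16.6% in ECs, against 31.2% and 0.783% in astrocytes. Of the 2 riboflavin carriers measured, Slc52a3 held 75.3% in ECs and 3.50% in astrocytes.

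The Slc38a family turned over between the cell types. In wild-type ECs Slc38a5 held 52.1% of the summed level per kilobase of 11 genes and Slc38a3 18.8%, with the broadly expressed Slc38a2 between them at 137 CPM per kilobase. In astrocytes Slc38a3 held 80.3% and Slc38a5 0.0949%. Slco1a4 did not lead its family. Slco1c1, a carrier of thyroxine, stood at 449 CPM per kilobase in ECs and 170 in astrocytes, and Slco1a4 held 23.1% of 12 Slco genes in ECs. The close relatives of Slco1a4, with which reads could be shared, were low in ECs, with Slco1a5 highest at 2.92 CPM.

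Other carriers known at this barrier moved the same way as most of the 10. Of 26 such genes tested, 21 were higher and 4 lower in wild-type ECs, and the same counts were found in mutants. Of all genes tested, 38.3% were higher and 38.2% lower in wild-type ECs, and 38.8% and 39.1% in mutant ECs. The most abundant were the monocarboxylate carrier Slc16a1 (857 CPM per kilobase, 5.26 on the log2 scale), Slco1c1 (1.34) and the scaffold Slc9a3r2 (208 CPM per kilobase, 5.53). The 4 that were lower were Slc27a1 (-4.45), Slc20a2 (-3.14), Slc5a3 (-0.79) and Slc6a8 (-0.33). The median of this list was 3.38 and that of the 10 carriers 5.11, against 0.02 over all genes. The value of 5.11 includes Slc38a5 and Slc52a3, which entered the fit through ECs alone and both lie above it.

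Carriers typical of astrocytes went the other way, with 21 of 22 lower in wild-type ECs. Slc1a4 (95.5 CPM per kilobase in ECs), Slc1a2 and Slc1a3 were the most abundant of them in ECs, at -1.46, -5.31 and -5.51 on the log2 scale. Slc16a9 was the one that was higher (2.57). Of 42 family relatives tested, 17 were higher and 17 lower, beside 38.3% and 38.2% of all genes tested. Slco4a1 and Slco5a1 entered this fit through ECs alone and Slc22a12 through astrocytes alone, so their calls followed from the filter. Among 30 barrier signalling genes and transcription factors, 25 were called higher. Sox17, Sox18, Foxl2, Erg and Fli1 are among these 25 but were too low among astrocyte libraries. They entered the fit through ECs alone, so their calls followed from the filter and are not counted as a result. The highest in level were Epas1 (298 CPM per kilobase, 1.90), the Wnt target Apcdd1 (4.37) and Ctnnb1, which encodes β-catenin (2.11). Tcf7l2 (-0.47) and Tspan12 (-0.37) were lower.

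The gene whose pattern over the 16 libraries was most like each carrier was found among 17483 genes as the smallest root mean square difference of centred log2(CPM + 1). The smallest differences were those of Slc38a3 with Pigp (0.0751), Slc3a2 with Crcp (0.101) and Slc52a3 with Tbx1 (0.176). Mfsd2a matched Wasf2 (0.184), Slc7a1 the metal carrier Slc39a8 (0.197), Slc7a5 Gstt2 (0.198), Slc22a8 the endothelial transcription factor Fli1 (0.200) and Slc2a1 the phospholipid transfer protein Pltp (0.205). Slc38a5 matched Vwf (0.300), which encodes von Willebrand factor, and Slco1a4 the surface antigen Ly6c1 (0.339). These values do not rank the carriers by closeness of match. The median difference to all genes searched was 0.489 for Slc38a3 and 0.631 for Slc3a2, but 3.21 for Slc52a3 and 4.49 for Slc38a5. These are descriptions over libraries of 2 cell types that share animals.

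The genotypes were compared within each cell type, to ask whether the carriers of ECs differ when astrocytes lack Hmgb1. In ECs 0 of the 10 carriers were called by edgeR (adjusted p of 0.943 or higher), as were 0% of 15750 genes. At an unadjusted p under 0.05 the count was 1 of 10, against 826 of all genes. DESeq2 called 1 of the 10, and 6 of all genes. That one was Slc52a3.

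Slc52a3, the riboflavin carrier, had lower levels in the mutant EC libraries, a difference that DESeq2 called and edgeR did not. Wild-type animals 5, 9, 19 and 22 had 120.6, 114.4, 123.9 and 123.3 CPM, and mutants 2, 13, 18 and 21 had 101.9, 94.6, 101.2 and 94.8 CPM. Every mutant library lay below every wild-type library. The means were 120.6 ± 4.37 and 98.1 ± 3.95 CPM (SD, n = 4), so that mutants had 81.4% of the wild-type level.

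The log2 fold change of Slc52a3 was -0.30 ± 0.05 (SE), with an unadjusted edgeR p of 2.31e-04, the second smallest of 15750 genes, and an adjusted p of 0.943. DESeq2 gave an adjusted p of 6.37e-04. The exact permutation test, two-sided and unadjusted, gave p = 0.0286, the smallest that 4 against 4 allows. Any gene whose groups do not overlap gets this value, so it only restates the lack of overlap given above. Slc52a3 was the only carrier in either cell type whose genotypes did not overlap. Of all genes, 3.45% in ECs and 4.97% in astrocytes did not overlap, so this is not taken as particular to Slc52a3. With all 16 libraries in 1 fit, which shares the spread across cell types, the SE rose to 0.18 and the unadjusted p to 0.109. Among animals with Y-linked transcripts the log2 fold change was -0.26 ± 0.10 and among those without -0.35 ± 0.07. Fam110a, which overlaps Slc52a3 on the other strand, was at 15.4 ± 3.76 CPM in wild-type and 10.9 ± 1.63 CPM in mutant ECs; its part in the difference was not tested.

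The difference of the glutamine carrier Slc38a5 was larger in size than that of Slc52a3, with a larger error. Mutant ECs had 467, 561, 698 and 667 CPM against the wild-type values given above, and the groups overlapped. The log2 fold change was -0.34 ± 0.17 (SE; unadjusted p = 0.0831, edgeR adjusted p = 0.943), and the exact permutation p was 0.2. Without 1 animal at a time it ran from -0.42 to -0.18.

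The other 8 carriers differed by less in ECs, from -0.10 ± 0.17 for Slc7a1 to 0.03 ± 0.21 for Slc2a1 (log2, SE). Slc22a8 stood at -0.10 ± 0.08, Mfsd2a at -0.06 ± 0.11, Slc38a3 at -0.06 ± 0.07, Slco1a4 at -0.02 ± 0.15, Slc3a2 at -0.02 ± 0.10 and Slc7a5 at -0.00 ± 0.12. The SE was largest for Slc2a1, whose ECs ranged from 1341 to 2033 CPM in the wild type and from 1174 to 2036 CPM in mutants. The median of the 10 was -0.06 and that of all genes -0.000802.

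In astrocytes 8 of the 10 carriers were high enough to test. None was called by edgeR (adjusted p 0.742 to 0.987), by DESeq2 or at an unadjusted p under 0.05, while 0.00631% of all genes were called. DESeq2 called 116 of all genes, and 1180 had an unadjusted p under 0.05. The values were -0.65 ± 0.43 for Slco1a4, -0.28 ± 0.17 for Slc7a1, 0.24 ± 0.21 for Slc22a8, -0.20 ± 0.20 for Slc7a5 and -0.14 ± 0.15 for Slc2a1. The Slco1a4 value rested on wild-type animal 5, which had 3.78 CPM (71 reads) while the other 3 had 0.964 to 1.68 CPM; without it the value was -0.07. Slc3a2 (-0.09 ± 0.11), Mfsd2a (0.05 ± 0.24) and Slc38a3 (-0.02 ± 0.13; log2, SE) were nearer to 0.

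**Figure D4:**
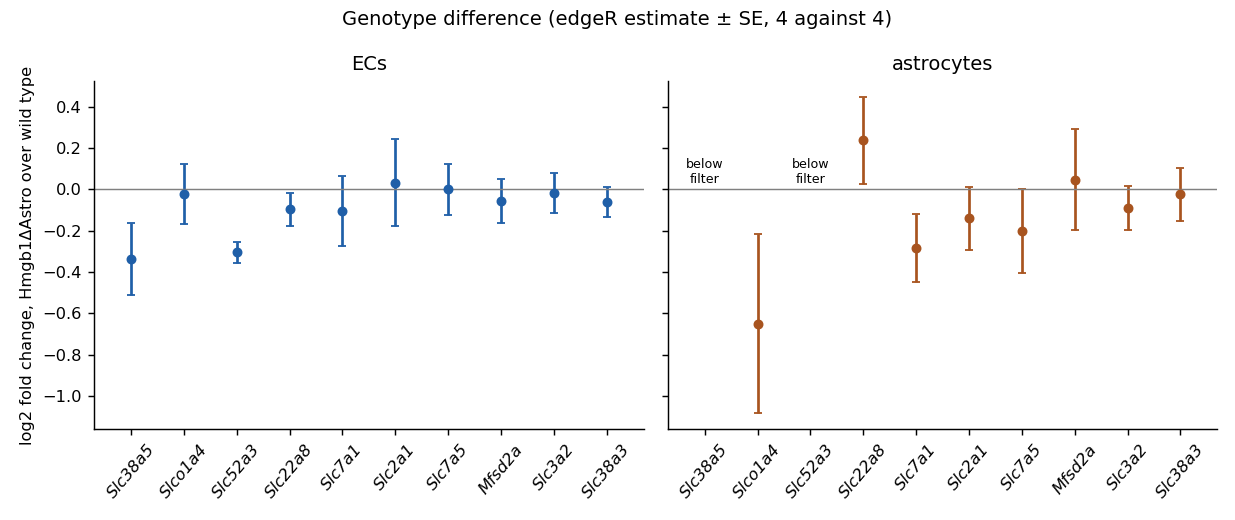
Difference between Hmgb1ΔAstro and wild-type animals for each carrier in ECs and in astrocytes, as log2 fold change from edgeR with its standard error; negative values are lower in mutants. Slc52a3 in ECs (-0.30 ± 0.05) is furthest from 0 relative to its error.

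Whether the genotype difference itself differed between the cell types was tested as an interaction over all libraries. None of the 10 carriers was called by edgeR, by DESeq2 or at an unadjusted p under 0.05, while edgeR called 0.0114% of all genes and DESeq2 13 genes, and 491 had an unadjusted p under 0.05. Slc38a5 and Slc52a3, with 1 to 11 reads per astrocyte library, entered this fit through ECs alone, so their interaction could not be tested at this depth. Of the other 8, Slco1a4 had the largest value at 0.65 ± 0.45 (log2, SE), which was 0.06 without animal 5. Hmgb1 was among the genes called, at 1.32 (adjusted p = 0.0100).

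No gene of the 4 other lists was called between genotypes by edgeR. In ECs the unadjusted p was under 0.05 for 0 of 26 other barrier carriers, 1 of 22 astrocyte carriers (the manganese exporter Slc30a10, log2 fold change 0.42), 1 of 41 relatives (Slco1b2, 0.58) and 1 of 30 signalling genes (the transcription factor Foxl2, -0.19). DESeq2 called none of these. Of all 15750 genes tested in ECs, 826 had an unadjusted p under 0.05. The smallest p-values among other barrier carriers in ECs belonged to the monoamine carrier Slc29a4 (-0.27) and the choline carrier Slc44a1 (0.15). The cationic amino acid carrier Slc7a2 (0.46) and the Wnt-linked transcription factor Tcf7 (-0.16) came next in their lists.

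In astrocytes 5 of 26, 3 of 22, 8 of 43 and 3 of 25 genes of these lists had an unadjusted p under 0.05, beside 1180 of all 15850 genes tested. Some genes, such as Slc7a10, stand in more than 1 list, so these counts are not independent. DESeq2 called Slc7a10, a carrier of small neutral amino acids, in 2 of the lists (edgeR log2 fold change -0.41 ± 0.10, SE; adjusted p = 0.351). The other leading genes were the thiamine carrier Slc19a3 (-1.14), the iron exporter Slc40a1 (-0.60), the GABA carrier Slc6a11 (-0.33) and Slc22a23 (-0.25). The transcription factor Foxc1 (0.46) and Tspan12, a co-receptor component of Norrin signalling (0.20), led in their list. Slc19a3 was near the floor, at 0.804 CPM in wild-type and 0.363 CPM in mutant astrocytes. Slc40a1 was low as well, at 4.95 and 3.24 CPM.

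Several carriers differed between animals of both genotypes along the division by Y-linked transcripts. This division holds 4 animals on each side, 2 of each genotype, and the comparison between its sides was added after the data were seen. The animals without Y-linked transcripts had Xist at 745–1209 CPM. Animal 5, which has Y-linked transcripts, had Xist at 13.1 CPM in ECs and 7.08 CPM in astrocytes, above the 0.372–1.04 CPM of the other 6 libraries of that side; whether it holds RNA of another animal was not tested. In ECs, Slc2a1 was at 1927 ± 176 CPM in the 4 animals with Y-linked transcripts and 1348 ± 126 CPM in the other 4 (SD), without overlap, a difference of 0.55 ± 0.11 on the log2 scale (SE; edgeR adjusted p = 0.0255). Slc38a5, on the X chromosome, was lower in the animals with Y-linked transcripts, at 565 ± 69.7 against 786 ± 148 CPM, also without overlap (log2 difference -0.44 ± 0.10, adjusted p = 0.0435). Slco1a4 did not overlap either (1525 ± 150 against 1253 ± 112 CPM) and was not called (adjusted p = 0.146). Of all genes in ECs 3.82% were called. The share of all genes without overlap along this division was not counted, so the lack of overlap is not taken as particular to these carriers. Each call was lost in 6 of the 8 fits that left out 1 animal, and 0 to 2 carriers were called. Without animal 5, Slc2a1 was still called (0.63) and Slc38a5 was not (-0.42).

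In astrocytes 6 of the 8 carriers tested were called between these animals, where 32.7% of all genes were. The share of all genes without overlap was not counted here either. Mfsd2a was at 174, 217, 200 and 229 CPM in animals 5, 9, 2 and 13 and at 149, 127, 133 and 118 CPM in animals 19, 22, 18 and 21, without overlap. The difference was 0.67 ± 0.10 on the log2 scale (SE; edgeR adjusted p = 0.00110). Slc22a8 was higher by 0.46 (adjusted p = 0.0354).

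The amino acid carriers of astrocytes were lower in the animals with Y-linked transcripts. Slc38a3 stood at 1065 ± 42.2 against 1376 ± 60.2 CPM (adjusted p = 0.00382). Slc7a5 stood at 169 ± 10.6 against 247 ± 45.2 CPM (0.00977) and Slc3a2 at 508 ± 33.6 against 606 ± 39.3 CPM (0.0459). These carriers were without overlap, which is not taken as particular to them, since all genes were not counted in this way. Slc7a1 was called as well, at 13.2 against 17.8 CPM (adjusted p = 0.0166), with overlapping libraries. Without animal 22, 3 carriers were called, and without animal 5, 5. Of all 16048 genes tested without animal 22, 2100 were called higher and 1947 lower. Without animal 5 these were 2187 and 1940 of 16123 genes.

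Other markers moved with the same division. In the astrocyte libraries EC markers summed to 27.3–36.0 CPM in animals with Y-linked transcripts and 16.7–21.1 CPM in the others, pericyte markers to 799–1407 and 381–636 CPM, neuron markers to 10.5–18.4 and 42.3–66.1 CPM and astrocyte markers to 39416–45128 and 34130–37110 CPM. In EC libraries astrocyte markers summed to 900–1140 and 1150–1524 CPM and erythroid markers to 824–1164 and 1352–2195 CPM. Their part in these differences was not tested, and sex cannot be told apart here from whatever else separates these animals.

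**Figure D5:**
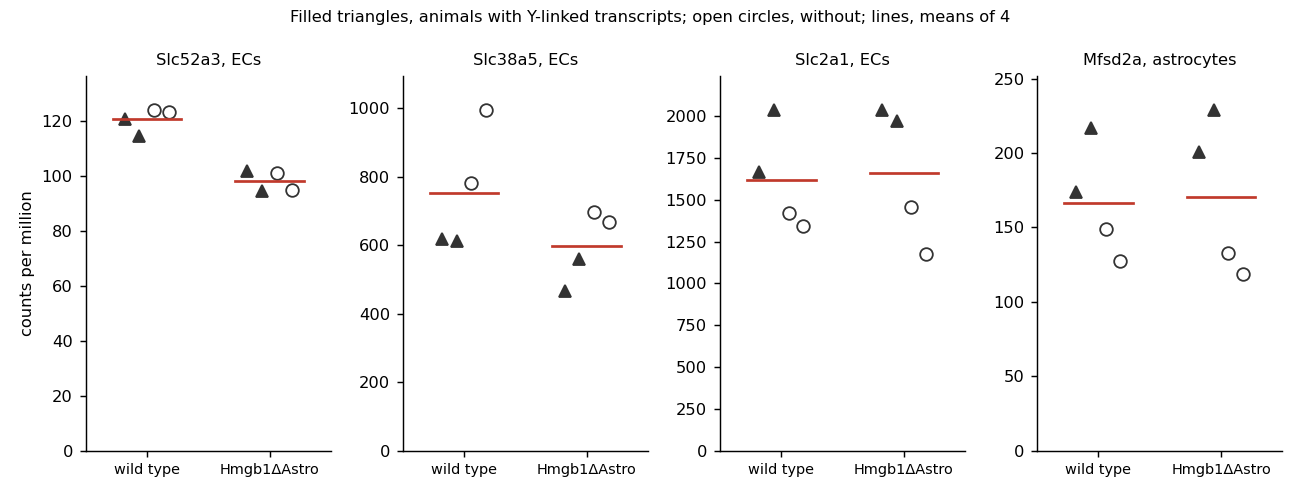
Level in CPM of Slc52a3, Slc38a5 and Slc2a1 in ECs and of Mfsd2a in astrocytes, by genotype; each symbol is 1 animal, triangles those with and circles those without Y-linked transcripts, and lines are means of 4. The genotypes are apart for Slc52a3 alone; for the other 3 genes triangles and circles are apart in each genotype.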

How the data were processed

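The authors counted reads per gene with STAR 2.7.9a on GRCm39 after trimming with FASTX-toolkit, per the labels and the study's methods, and deposited 1 table of raw counts for all 16 libraries. The strand setting and annotation release are not given in the sources used here, and the library kit is named differently in the labels (TruSeq) and the methods (NEBNext). The 10 carriers were matched by Ensembl identifier through GENCODE vM39, which held 56236 of 56980 identifiers. The members and gene lists were chosen with earlier results of these data known.

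Levels are CPM of the library total, with lengths from the union of exons. Tests used edgeR 4.0.16 in R 4.3.3 (quasi-likelihood, TMM, filterByExpr, Benjamini-Hochberg over all genes tested, threshold 0.05), checked on simulated data. Alternatives were DESeq2 1.42.0, limma-voom (limma 3.58.1), other scalings and filters, each animal left out, Xist as covariate, fits within animals with or without Y-linked transcripts (summed CPM of at least 1), and an animal block. A Y-linked covariate and the comparison of animals with and without Y-linked transcripts were chosen after seeing the data. Libraries of 1 animal deviated together from their group means (r 0.173 to 0.460 over genes, 7 of 8 matching their own animal best), so EC against astrocyte comparisons were also fitted with the animal as block. Each animal is 1 replicate; the number of litters is not given in the sources used here.

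Named genes were the 10 carriers and Hmgb1 and Xist. From each list they were the 3 highest per kilobase in ECs, the 2 with the smallest genotype p in each cell type and every gene called between genotypes. Marker lists are given as sums. Markers at the ends of a range, genes that went against their list, leading family members, Fam110a and Ttr were named after their values were seen. Promoter windows were read from the GRCm39 genome sequence.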

Additional observations from a re-analysis of the deposited data

Results flagged for a closer look

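Of 40 sets of 4 libraries (10 carriers in 4 groups), 2 held a library far from the others by Dixon's 95% criterion, which flags about 5% of groups by chance. Slc7a5 was at 3192 CPM in the ECs of mutant 13, while the other 3 mutants had 2516 to 2572 CPM; the gap was 0.917 of the group's range. Without that animal the genotype difference of Slc7a5 in ECs was -0.10 on the log2 scale. Slc3a2, the heavy chain that pairs with Slc7a5, was at 926.8 CPM in the ECs of mutant 2, below the 1157 to 1185 CPM of the other 3 (0.893 of the range). Without mutant 2 its genotype difference was 0.05.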

How the results depend on the processing

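Between ECs and astrocytes all 10 carriers kept their direction under every alternative. An animal block left 10 of 10 called in each genotype and 0 in the interaction, and it changed no other call. These counts include Slc38a5 and Slc52a3, whose calls between the cell types followed from the filter and are not counted as a result. Requiring a log2 fold change beyond 1 left 8 called, Slc38a5 and Slc52a3 among them. With the block, 6318 of all 16336 genes were called higher and 6264 lower in wild-type ECs. In mutant ECs these were 6365 and 6431 of 16508. Beyond a log2 fold change of 1 and without the block, 3594 were higher and 4316 lower in wild-type ECs, and 3631 and 4337 in mutant ECs. Of the fits run for single carriers, the genotype difference took the other sign in 28 of 190 in ECs, 15 of 152 in astrocytes and 12 of 190 in the interaction, and the call changed in 1, 0 and 0; the 1 was Slc52a3 with DESeq2 (1 carrier called). The 190 interaction fits include those of Slc38a5 and Slc52a3, whose interaction could not be tested at this depth. Levels per kilobase moved by more than 1 SD for 24 of 40 with the longest transcript as length.

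Values of the other sign in ECs were, for Slc2a1, -0.0131 (limma), -0.0352 (Xist covariate) and -0.0810 (animals without Y-linked transcripts). For Slc7a5 they were 0.00581 (Xist covariate), 0.00218 (Y-linked covariate), 0.230 (animals with Y-linked transcripts) and 0.00231 (all 16 libraries in 1 fit). In animals with Y-linked transcripts they were 0.0177 for Slc7a1, 0.0405 for Slc3a2 and 0.0608 for Slco1a4, and Slc3a2 was 0.000430 with Xist as covariate. In astrocytes they were, for Mfsd2a, -0.0297 (limma), -0.0400 (Xist) and -0.153 (without Y-linked transcripts), for Slc38a3 0.0120 (Xist) and 0.0716 (with Y-linked transcripts), for Slc7a5 0.125 (with) and for Slco1a4 0.211 (without). In the interaction among animals without Y-linked transcripts, Mfsd2a was 0.0332, Slco1a4 -0.343 and Slc38a3 0.0106.

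Leaving out 1 animal moved the EC values of Slc2a1 from -0.0929 to 0.181, Mfsd2a from -0.130 to 0.0258, Slc7a1 from -0.239 to 0.0267, Slc7a5 from -0.0954 to 0.0628, Slc3a2 from -0.0549 to 0.0519 and Slco1a4 from -0.156 to 0.0864. In astrocytes Mfsd2a ran from -0.132 to 0.198 and Slc38a3 from -0.114 to 0.0665. In the interaction Mfsd2a ran from -0.322 to 0.0566, Slc3a2 from -0.0254 to 0.177 and Slc38a3 from -0.133 to 0.0596. Slc52a3 ran from -1.18 to 0.0456, but its interaction could not be tested at this depth.

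Between animals with and without Y-linked transcripts, the 2 carriers called in ECs became 0 beyond a log2 fold change of 1, 4 with no filter, 1 with limma and 0 to 2 with 1 animal left out. The 6 in astrocytes became 0 beyond a log2 fold change of 1 and 3 to 6 with 1 animal left out. Among all genes, those called beyond a log2 fold change of 1 were 51 higher and 262 lower in ECs, and 274 and 380 in astrocytes. Limma called 211 higher and 405 lower in ECs. With 1 animal left out, 73 to 186 were higher and 227 to 437 lower in ECs, and 1946 to 2375 and 1940 to 2419 in astrocytes. Over all genes the genotype calls in astrocytes were 1 with edgeR, 116 with DESeq2, 192 with the Xist covariate and 161 with the Y-linked covariate, and the interaction calls 2, 13 with DESeq2 and 3 with the block. In ECs the animals with and without Y-linked transcripts differed in 601 genes, 1147 with DESeq2 and 2071 with no filter. The causes were not tested. Depth limits Slc38a5 and Slc52a3 in astrocytes, which had 1 to 11 reads per library.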
